A study of Saccharomyces cerevisiae with 48 samples.

Results

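Transcript levels of 33 genes of sterol synthesis, its regulation and sterol import were followed in the budding yeast Saccharomyces cerevisiae, out of 6713 genes in the expression table. The genes were taken by name: 9 genes of the mevalonate part of the pathway, 3 that lead from farnesyl pyrophosphate to lanosterol, 11 that convert lanosterol to ergosterol, 2 electron donors, 3 transcriptional regulators, 3 uptake or transport genes and 2 sterol esterification genes. All 33 passed the filter on low values in every fit. RNA was sequenced from 3 wild strains: the West African strain NCYC3290 (WA), spelled NCY3290 in the labels, and the mosaic strains Y7568 (PAP), from papaya, and IL01, from Illinois soil. Each strain was grown in rich medium without alcohol (YPD), with 0.8% 1-butanol, with 1% isobutanol or with ethanol, with oxygen (aerobic) or without it in an anaerobic chamber, and 2 replicates of each combination gave 24 groups and 48 libraries. Ethanol was given at 4% with oxygen and at 3% without it, so ethanol was not compared across oxygen. Cultures were collected in log phase after a few generations in the medium, replicates on different days, and the sources used here name no sterol added to the anaerobic cultures and do not say whether aerobic and anaerobic cultures shared their collection days. Each strain was 1 isolate, so a strain difference is a difference between isolates. Whether differences in sequence from the S288c reference, to which all 3 strains were aligned, moved any strain's values was not tested.

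Levels are given as RPKM, mapped reads scaled to gene length and to the depth of the library, and changes as differences in log2(RPKM + 0.5) ± SE, with p-values from limma adjusted by Benjamini-Hochberg over all genes tested and a threshold of 1% false discovery. The added 0.5 understates the change of genes with low RPKM. RPKM is a share of each library, so a change in a gene's share cannot be told apart from a change in total RNA per cell. Depth, calculated back from the RPKM values, was between 7480286 and 13938540 mapped reads per library (median 9762380). Reads in genes, recovered as whole numbers for 6012 of 6713 genes, made up 55.57% to 84.35% of it. The lowest shares were 55.57% in PAP YPD anaerobic replicate 2, 59.05% in WA 1-butanol anaerobic replicate 1 and 66.42% in WA isobutanol anaerobic replicate 1. Their replicate partners stood at 78.82%, 80.7% and 79.65%. The median log2 RPKM over genes was 3.76, 3.99 and 4.13 in these libraries, against 4.31, 4.26 and 4.05 in their partners. Leaving out single ones of them moved some calls, as given below. Whether the low share was the cause was not tested. Across libraries, 3 reads in a gene of 1 kb corresponded to 0.2152 to 0.4011 RPKM, counting error only. Replicates correlated across genes at r = 0.936 to 0.992. The oxygen labels matched the genes that mark them: DAN1, an anaerobic cell wall mannoprotein, lay between 0 and 8.74 RPKM with oxygen and between 1411.2 and 5819.7 without it.

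The libraries labelled WA ethanol anaerobic stood apart from their label and were left out of every test unless stated. ENB1, a siderophore transporter gene that reached at most 0.0634 RPKM in the 14 other WA libraries, was at 9.12 and 9.69 RPKM in them. SNZ3, which lay between 6.22 and 32.6 RPKM in the other WA libraries, was listed at 0 in both. AI2, otherwise expressed above 1 RPKM only in PAP, was at 231 and 271 RPKM, while KTD1, listed at 0 in every PAP library, was at 18.6 and 23.7 RPKM. Of the genes that set WA apart, ARN2 also went against the label, at 6.12 and 7.58 RPKM. DFP2 went with it, at 64.3 and 81.3 RPKM in the pair, 13.8 to 27.3 in WA and at most 0.574 elsewhere. AI5_BETA, otherwise above 1 RPKM only in IL01, was at 7.95 and 9.64 RPKM. BI4, at most 0.0621 RPKM in IL01, was at 54.6 and 51 RPKM. The pair therefore followed the pattern of none of the 3 strains throughout, and their values are given apart.

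Ergosterol is the main sterol of yeast membranes. Its synthesis begins with acetyl-CoA, passes through mevalonate, squalene and lanosterol, and needs molecular oxygen at the epoxidation of squalene, at the removal of methyl groups from lanosterol and at the desaturation steps. Yeast without oxygen cannot complete the pathway and takes up sterol from the medium, which aerobic cells do little. The related zinc cluster factors Upc2 and Ecm22 bind the sterol response element TCGTATA or close variants such as TCGTTTA, and Rox1, a repressor of hypoxic genes, binds sites with the core ATTGTTC.

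The sterol response elements in the gene starts were read from the S288c reference, build R64, from NCBI RefSeq, with windows of 250 bases before to 50 bases after the annotated gene start. On either strand, TCGTATA was found in the windows of 3 of the 33 genes and in 4.15% of the windows of 6001 genes, TCGTTTA in 11 of 33 and 5.48%, at least 1 of the pair in 14 of 33 and 9.38%, and ATTGTTC in 8 of 33 and 7.65%. The sequences of 4 windows are shown because their genes hold an element and moved in opposite directions without oxygen in YPD: ARE1 and NCP1 were higher, and ERG4 and ERG8 lower. They lie on the plus strand at chrIII:211679-211978 (ARE1), chrVII:472605-472904 (ERG4), chrXIII:712066-712365 (ERG8) and chrVIII:190293-190592 (NCP1). Capitals mark TCGTTTA or TCGTATA, or their reverse complements TAAACGA and TATACGA.
ARE1: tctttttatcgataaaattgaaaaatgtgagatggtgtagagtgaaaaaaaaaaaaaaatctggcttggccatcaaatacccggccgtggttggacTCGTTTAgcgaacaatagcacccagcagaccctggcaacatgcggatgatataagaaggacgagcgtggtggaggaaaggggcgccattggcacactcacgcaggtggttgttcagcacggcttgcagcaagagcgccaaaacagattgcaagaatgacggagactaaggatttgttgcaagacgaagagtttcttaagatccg
ERG4: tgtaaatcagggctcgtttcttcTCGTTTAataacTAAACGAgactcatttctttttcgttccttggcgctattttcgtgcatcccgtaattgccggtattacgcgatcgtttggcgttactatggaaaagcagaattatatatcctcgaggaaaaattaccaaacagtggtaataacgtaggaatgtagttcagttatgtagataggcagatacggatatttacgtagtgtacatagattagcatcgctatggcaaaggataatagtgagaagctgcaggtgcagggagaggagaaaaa
ERG8: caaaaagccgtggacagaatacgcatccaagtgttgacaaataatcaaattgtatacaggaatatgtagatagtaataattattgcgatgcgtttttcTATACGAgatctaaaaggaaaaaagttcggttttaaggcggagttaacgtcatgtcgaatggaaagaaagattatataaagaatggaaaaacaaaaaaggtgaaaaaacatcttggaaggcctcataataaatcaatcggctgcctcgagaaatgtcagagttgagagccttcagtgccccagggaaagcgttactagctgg
NCP1: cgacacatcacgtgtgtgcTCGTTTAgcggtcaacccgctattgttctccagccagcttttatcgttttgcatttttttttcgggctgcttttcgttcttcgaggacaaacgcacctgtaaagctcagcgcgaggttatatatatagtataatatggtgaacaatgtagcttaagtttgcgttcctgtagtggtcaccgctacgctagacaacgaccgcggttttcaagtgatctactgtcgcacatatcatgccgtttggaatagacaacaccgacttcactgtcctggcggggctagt
A match is a description of the letters and not evidence of binding. Of the 14 genes with either sterol element, 4 rose and 5 fell without oxygen in YPD, with a median log2 change of -0.27 in RPKM + 0.5, and of the 19 without it 8 rose and 6 fell, with a median of 0.35. HES1, AUS1, PDR11, UPC2, HMG1 and ERG5, which include the genes with the largest changes below, hold neither letter string in these windows.

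In YPD the 3 genes of sterol uptake and transport and the regulators UPC2 and SUT1 rose without oxygen, while the genes that make sterol were split. Without oxygen 12 of the 33 genes rose and 11 fell, beside 26.1% of all genes higher and 14.5% lower. Their median log2 change was 0.09, against 0.26 over all genes tested. Scaling the libraries by quantile normalization moved the median of all genes to -0.04 and the share of called genes that were higher from 64.3% to 46.5%, while the sterol genes stayed at 12 higher and 11 lower.

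**Figure D1:**
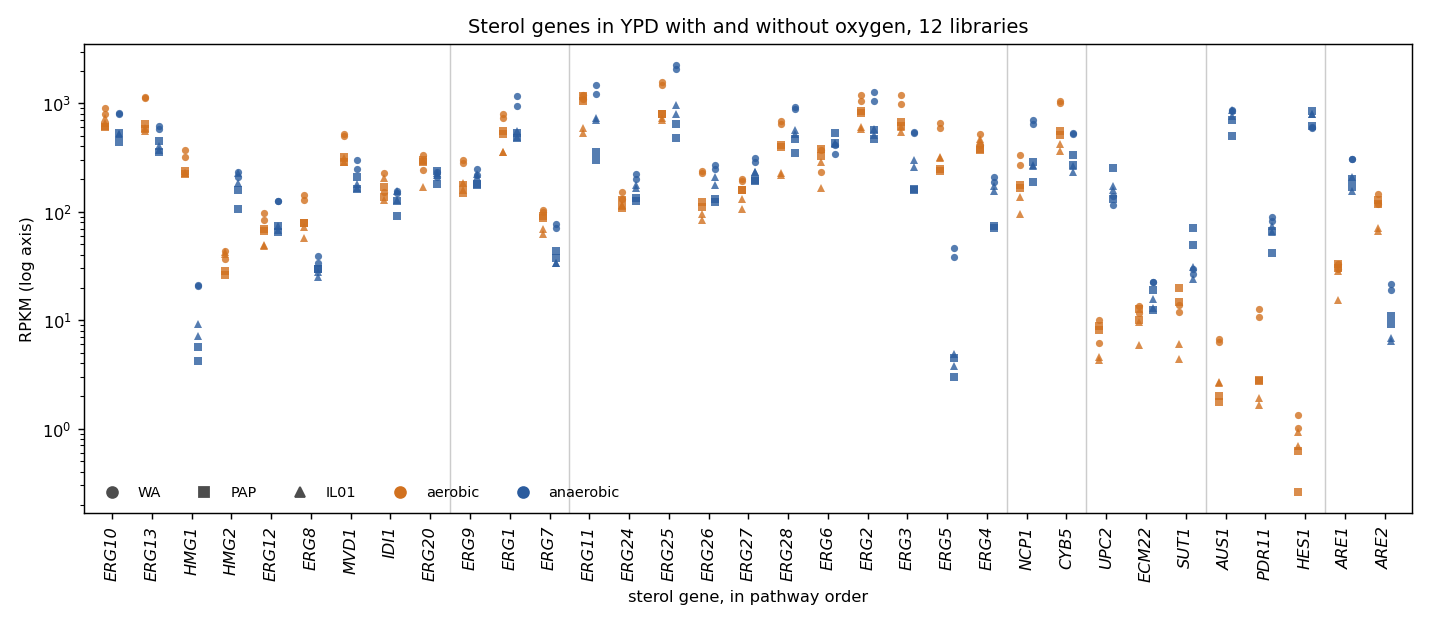
RPKM (log axis) of each of the 33 sterol genes, in pathway order, in the 12 YPD libraries. Colours give oxygen and marker shapes the strain. HES1 and AUS1 lie at 0.261 to 6.74 RPKM with oxygen and 495 to 876 without it, and HMG1 and ERG5 at 223 to 654 with oxygen and 2.98 to 46.3 without it.

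All 3 uptake and transport genes rose. HES1 (YOR237W, chrXV:781994-783298), which encodes an oxysterol-binding protein homologue, was at 0.261, 0.809 and 1.34 RPKM (lowest, median and highest of 6 aerobic YPD libraries) and at 597, 703 and 846 RPKM in the 6 anaerobic ones. Its log2 change was 9.12 ± 0.16 (adjusted p = 9.1e-12), and its aerobic level rests on 4 to 15 reads per library. AUS1 (YOR011W, chrXV:349679-353863), an ABC transporter required for sterol uptake, went from 1.78, 2.68 and 6.74 RPKM to 495, 805 and 876 RPKM, a log2 change of 7.63 ± 0.14 (adjusted p = 9.1e-12). PDR11 (YIL013C, chrIX:328207-332442), a related ABC transporter of sterol uptake, went from 1.67, 2.78 and 12.7 RPKM to 41.8, 70.1 and 90.3 RPKM, a log2 change of 3.93 ± 0.17 (adjusted p = 1e-08). The aerobic and anaerobic ranges of these 3 genes did not overlap.

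Of the regulators, UPC2 and SUT1 rose and ECM22 did not pass the test. UPC2 (YDR213W, chrIV:889751-892492) was at 4.32, 7.16 and 10 RPKM with oxygen and 116, 150 and 255 RPKM without it, a log2 change of 4.45 ± 0.18 (adjusted p = 4.7e-09). SUT1 (YGL162W), a zinc cluster factor that promotes sterol uptake, was at 4.42, 12.9 and 19.9 RPKM and then at 24.2, 30.4 and 70.5 RPKM, a log2 change of 1.72 ± 0.16 (adjusted p = 7.2e-06). ECM22 (YLR228C), the paralogue of UPC2, was at 5.85, 10.8 and 13.4 RPKM with oxygen and 12.3, 17.4 and 22.7 RPKM without it, and its log2 change of 0.71 ± 0.21 had an adjusted p of 0.012. The ranges of UPC2 and SUT1 did not overlap between conditions, and those of ECM22 did. Of all genes, 17.3% were higher in this way.

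Pairs of paralogues exchanged places. HMG1 and HMG2 encode HMG-CoA reductase, the rate-limiting enzyme of the mevalonate pathway. HMG1 (YML075C, chrXIII:115734-118898, minus strand) fell from 223, 234 and 375 RPKM to 4.17, 8.22 and 21.3 RPKM, a log2 change of -4.73 ± 0.14 (adjusted p = 4.1e-10). HMG2 (YLR450W, chrXII:1032627-1035764) rose from 26.1, 38.5 and 43.3 RPKM to 106, 198 and 231 RPKM, a log2 change of 2.33 ± 0.14 (adjusted p = 2.1e-07). HMG1 was thus the more abundant transcript per length in every aerobic YPD library and HMG2 in every anaerobic one. The sterol acyltransferases that make steryl esters showed the same exchange. ARE2 (YNR019W) fell from 67, 119 and 147 RPKM to 6.4, 10.1 and 21.8 RPKM, a log2 change of -3.17 ± 0.14 (adjusted p = 1.2e-08), and ARE1 (YCR048W) rose from 15.3, 29.9 and 33.3 RPKM to 156, 205 and 308 RPKM, a log2 change of 2.96 ± 0.14 (adjusted p = 2e-08). ARE1 overlaps YCR050C on the opposite strand over 298 bases, and since the strand setting of the counting is not given in the sources used here its level is uncertain.

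Ratios within a library gave the size of the change in each pair and medium. In the pair of UPC2 and ECM22, ECM22 did not fall. Its log2 change of 0.71 in YPD did not pass the test. In isobutanol its anaerobic libraries all lay above its aerobic ones, beside 15.7% of all genes. In YPD the log2 ratio of HMG2 to HMG1 was -2.87 ± 0.34 (SD, n = 6) with oxygen and 4.19 ± 0.64 (SD, n = 6) without it. That of ARE1 to ARE2 went from -1.90 ± 0.32 to 4.23 ± 0.38, and that of UPC2 to ECM22 from -0.57 ± 0.29 to 3.17 ± 0.56 (SD, n = 6 each). The difference between conditions was 7.06, 6.12 and 3.74 in YPD, 7.47, 5.69 and 3.98 in 1-butanol, and 7.10, 6.58 and 3.78 in isobutanol, in the same order of pairs. Each of these 9 differences reached the smallest p that the design allows in a two-sided exact permutation test over all arrangements of the oxygen labels within strains, 0.0093, and adjustment over the 9 left it at 0.0093. The ratios restate the values of the single genes tested above, in the same libraries, so these p-values add no separate support. The change in the HMG2 to HMG1 ratio ranged over strains from 5.45 (WA in isobutanol) to 9.03 (PAP in 1-butanol).

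**Figure D2:**
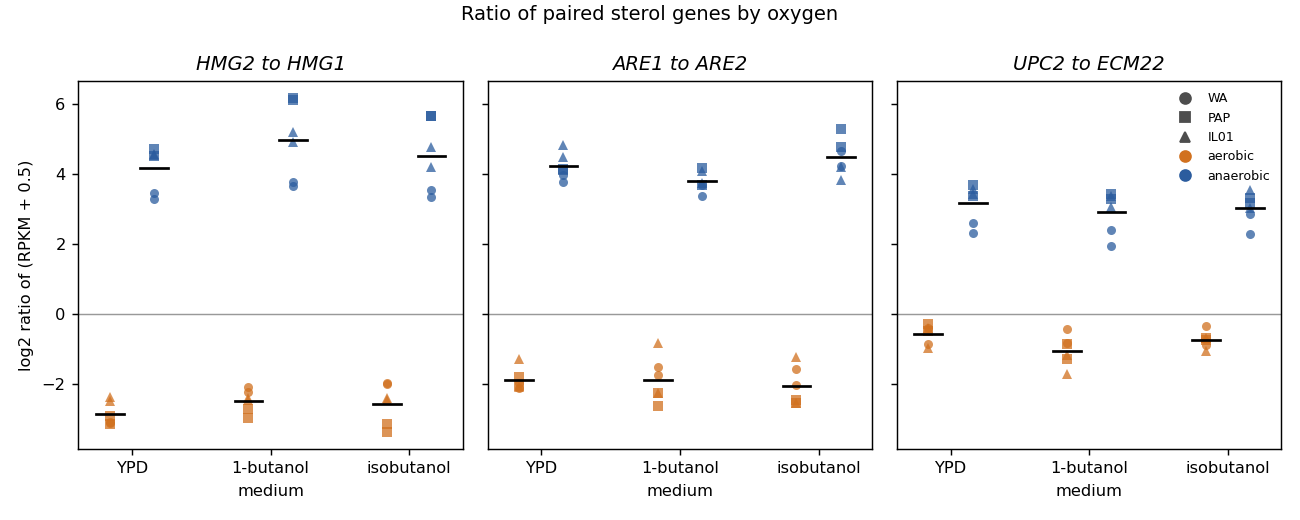
Log2 ratio of (RPKM + 0.5) of HMG2 to HMG1, ARE1 to ARE2 and UPC2 to ECM22 in YPD, 1-butanol and isobutanol, 1 point per library, coloured by oxygen and shaped by strain, with black lines at the mean of 6 libraries. The ratios of HMG2 to HMG1 lie between -3.39 and -2.00 with oxygen and between 3.28 and 6.19 without it.

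Among the other genes of the mevalonate part, ERG8, MVD1 and ERG13 fell in YPD and the other 4 did not pass the test. ERG8 (YMR220W), phosphomevalonate kinase, fell from 57.2, 79.1 and 144 RPKM to 24.9, 29.6 and 39.4 RPKM, a log2 change of -1.53 ± 0.13 (adjusted p = 3e-06). MVD1, which decarboxylates mevalonate pyrophosphate, had a log2 change of -0.81 ± 0.10, and ERG13, HMG-CoA synthase, one of -0.70 ± 0.10. ERG10 (acetoacetyl-CoA thiolase), ERG12 (mevalonate kinase), IDI1 (isopentenyl pyrophosphate isomerase) and ERG20 (farnesyl pyrophosphate synthase) had log2 changes between -0.33 and 0.35. Of the enzymes from there to lanosterol, ERG9, squalene synthase, had a log2 change of 0.05 ± 0.11, ERG1, the oxygen-using squalene epoxidase, one of 0.31 ± 0.10 (adjusted p = 0.029), and ERG7, lanosterol synthase, fell by 0.85 on the log2 scale.

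The genes from lanosterol to ergosterol divided by step. ERG5 (YMR015C, chrXIII:300869-302485, minus strand), a cytochrome P450 that desaturates the sterol side chain, fell from 240, 318 and 654 RPKM to 2.98, 4.68 and 46.3 RPKM, a log2 change of -5.26 ± 0.14 (adjusted p = 2.1e-10). ERG4 (YGL012W), the last reductase of the pathway, fell from 369, 431 and 519 RPKM to 70.7, 163 and 210 RPKM, a log2 change of -1.68 ± 0.11 (adjusted p = 3e-07). ERG3, the sterol desaturase that acts on the ring system, fell from 545, 639 and 1201.5 RPKM to 158, 278 and 540 RPKM, a log2 change of -1.35 ± 0.11 (adjusted p = 1.4e-06). The ranges of all 3 were separate between conditions, and 9.7% of all genes were lower in this way. ERG11, the lanosterol demethylase that azole drugs inhibit, fell by 0.40 ± 0.10 averaged over strains, and ERG24, ERG26, ERG27 and ERG28, which encode a sterol reductase, a decarboxylating dehydrogenase, a ketoreductase and a scaffold protein of the demethylation complex, rose by 0.43 to 0.62. ERG11, ERG24 and ERG26 lost their call in 10, 11 and 8 of the 12 fits that left out 1 library each. ERG25, the methyl sterol oxidase, ERG6, the sterol methyltransferase, and ERG2, the sterol isomerase, did not pass the test, with changes of 0.09, 0.58 and -0.26. Of the electron donors, NCP1, the P450 reductase, rose by 0.94 ± 0.14 (adjusted p = 0.00018) and CYB5, cytochrome b5, fell by 0.82 ± 0.10 (adjusted p = 5.9e-05).

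The uptake genes, UPC2, SUT1, HMG2 and ARE1 rose without oxygen in the butanols too, and HMG1, ERG5, ARE2 and ERG3 fell. In 1-butanol 8 sterol genes rose and 14 fell without oxygen, beside 36.7% and 22.8% of all genes, and in isobutanol also 8 rose and 14 fell, beside 30.8% and 18.5%. The medians of the sterol genes were -0.20 and -0.19 on the log2 scale, against 0.20 and 0.19 over all genes. Under quantile normalization the medians of all genes became -0.06 and -0.05, the share of called genes that were higher went from 61.7% to 46.2% and from 62.5% to 47.4%, and the sterol genes stood at 8 higher and 14 lower in 1-butanol and 8 higher and 10 lower in isobutanol. ERG27 was the other gene that rose in both, and its call was lost in 8 and 9 of the 12 fits that left out 1 library, as were those of the falling genes ERG13 (8 and 9), ERG25 (9 and 7) and, in isobutanol, ERG20 (8). ERG3 had a log2 change of -3.28 ± 0.14 in 1-butanol and -3.16 ± 0.13 in isobutanol, and ERG7, CYB5, ERG2 and IDI1 had changes between -1.75 and -0.86 in these media. NCP1 did not pass the test in either, with changes of 0.15 and 0.08.

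Over the 18 aerobic and 18 anaerobic libraries of YPD, 1-butanol and isobutanol, whatever the strain, 6 sterol genes were higher without oxygen with no overlap (HES1, AUS1, PDR11, UPC2, HMG2 and ARE1), beside 5.37% of all genes, and 5 were lower (HMG1, ERG8, ERG3, ERG5 and ARE2), beside 4.79%. HES1 lay between 0.261 and 8.11 RPKM with oxygen and between 491 and 1357.9 without it. ERG5 lay between 240 and 841 RPKM with oxygen and between 1.6 and 62.7 without it.

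Of a list of 36 other genes of sterol biology (steryl ester hydrolases, sterol transfer proteins, regulators and accessory proteins), 35 were tested in YPD, and 18 rose and 7 fell without oxygen, beside 26.1% and 14.5% of all genes. ROX1 had the largest fall, -6.34 ± 0.20 on the log2 scale. YEH1, a steryl ester hydrolase, changed by -3.16, and OSH6, an oxysterol-binding protein homologue that moves phosphatidylserine, by 3.22. In 1-butanol and in isobutanol 20 of these genes rose and 9 fell, beside 36.7% and 22.8%, and 30.8% and 18.5%, of all genes.

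The change without oxygen in YPD differed among strains for 2 of the 33 genes, ERG11 and ERG5, beside 1.4% of all genes. ERG11 (YHR007C, chrVIII:120091-121683, minus strand) was at 1095.8 and 1196.5 RPKM in WA with oxygen and 1480.5 and 1221.1 without it, at 1052.2 and 1167.3 and then 355 and 297 in PAP, and at 532 and 589 and then 735 and 696 in IL01. PAP thus fell by 1.77 ± 0.17 on the log2 scale while WA and IL01 had changes of 0.23 and 0.35, and the joint test of the difference gave an adjusted p of 0.00079. ERG5 was at 586 and 654 RPKM in WA with oxygen and kept 46.3 and 38.5 RPKM without it. In PAP it went from 240 and 249 to 4.52 and 2.98 RPKM, and in IL01 from 315 and 321 to 3.79 and 4.84 RPKM. Its changes were -3.86, -5.87 and -6.06 in WA, PAP and IL01 (adjusted p of the difference 0.0069). The count of 2 became 0 without either PAP YPD aerobic library, 4 without either WA YPD aerobic library, and 1 without either IL01 YPD aerobic library, either WA YPD anaerobic library, PAP YPD anaerobic replicate 2 or IL01 YPD anaerobic replicate 1. The call of ERG11 was lost without either PAP YPD aerobic library and that of ERG5 in 8 of the 12 fits that left out 1 library.

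**Figure D3:**
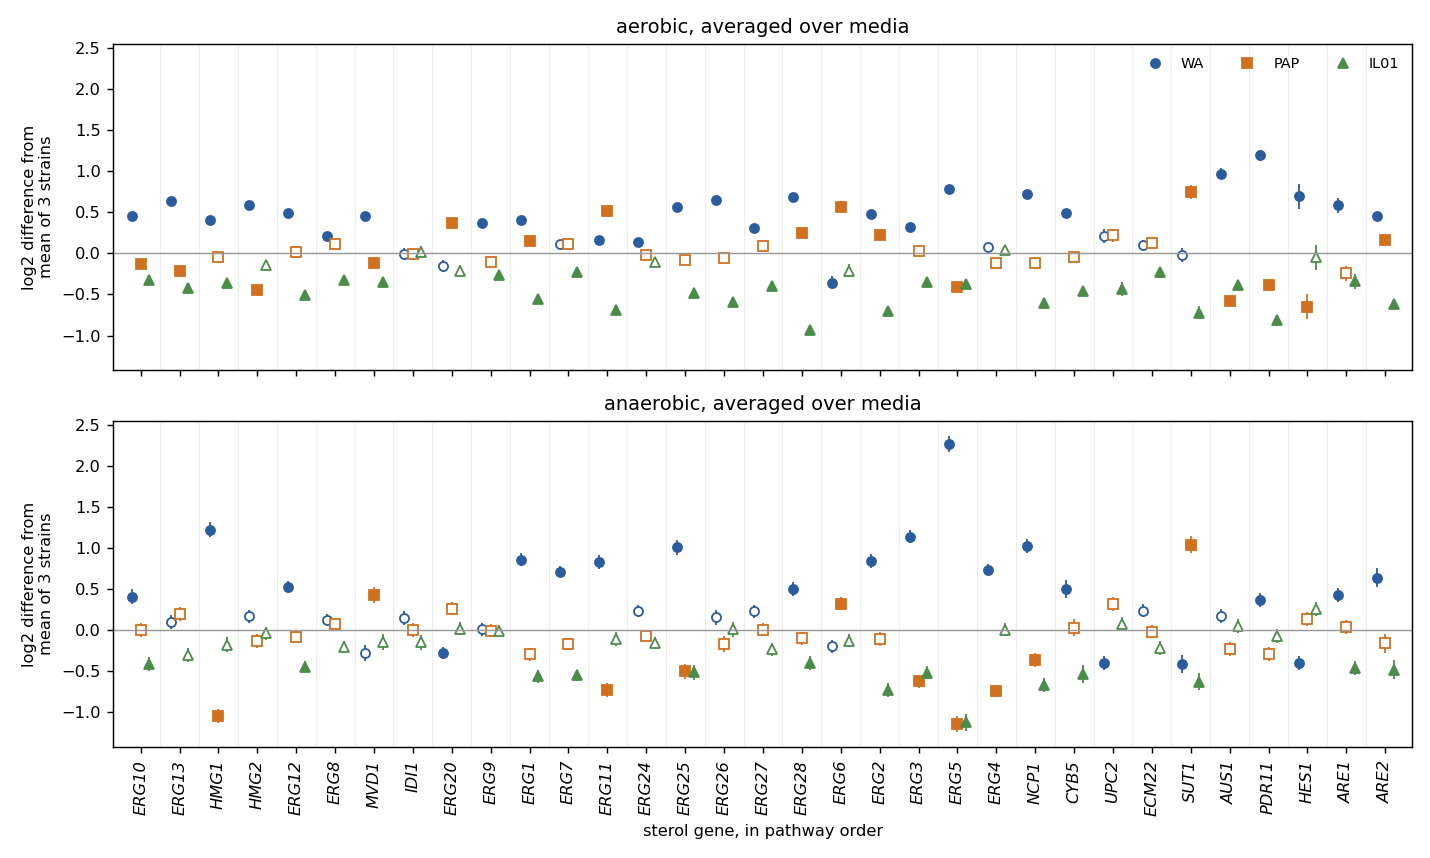
Log2 difference of each strain from the mean of the 3 strains for the 33 sterol genes in pathway order, averaged over media, with oxygen (24 libraries) and without it (18 libraries, ethanol left out). Bars are standard errors, filled markers passed the 1% threshold and open markers did not. WA lies above 0 for 25 called genes with oxygen, and IL01 lies below 0 for each of its 26.

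WA stood above the mean of the 3 strains, and IL01 below it, for most of the pathway with oxygen. With oxygen, 30 of the 33 genes differed among strains, beside 49.1% of all genes, and without it 23 of 33, beside 38.8%. Set against the mean of the strains with oxygen, WA had 25 sterol genes higher and 1 lower (21.2% and 21.5% of all genes), PAP 8 higher and 8 lower (13.2% and 14%), and IL01 0 higher and 26 lower (11.9% and 14.5%). The median difference of the sterol genes was 0.45 in WA and -0.38 in IL01, against -0.04 over all genes in WA. For each gene the differences of the strains from their own mean balance out. WA above the mean and IL01 below it are therefore not separate findings. The summed RPKM of the 33 genes in aerobic YPD was 13434.7 and 14155.2 in WA, with 9080.8 and 9361.1 for PAP and 7406.2 and 7721.7 for IL01.

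With oxygen, the genes furthest above the mean in WA were uptake genes that were themselves low. PDR11 was at 2.38, 7.41 and 13.7 RPKM in the 8 WA libraries, 1.16, 1.62 and 2.82 for PAP and 0.786, 1.23 and 1.9 for IL01, and WA stood 1.19 ± 0.07 above the mean (adjusted p = 3.6e-10). AUS1 stood 0.97 ± 0.07 above it (adjusted p = 4.9e-09), at 6.31, 8.88 and 12.5 RPKM in WA against 1.78 to 4.27 in PAP and 1.71 to 7.42 in IL01. Among the synthesis genes ERG5 had the widest gap. It was at 569, 726 and 841 RPKM in WA, 238, 301 and 440 for PAP and 248, 324 and 382 for IL01, a difference of 0.79 ± 0.03 for WA (adjusted p = 3.2e-12). ERG13, MVD1, ERG5 and NCP1 were higher in all 8 WA libraries than in any of the other 16, beside 1.98% of all genes. ERG6 was the only member lower in WA, by 0.36. In IL01, ERG28 had a median of 238 RPKM and reached at most 340, against 393, 562 and 806 in PAP and 550, 775 and 1047.7 in WA, a difference of -0.94 ± 0.03 (adjusted p = 1.3e-12). ERG1, ERG11, ERG28, ERG2 and ARE2 were lower in all 8 IL01 libraries than in any other, beside 0.837% of all genes. PAP stood above the mean most for SUT1 (0.74 ± 0.08), ERG6 (0.56 ± 0.08) and ERG11 (0.52 ± 0.03), and below it most for HES1, AUS1 and HMG2 (-0.65, -0.58 and -0.45).

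Without oxygen WA had 17 sterol genes higher and 4 lower (9.04% and 24% of all genes), PAP 3 higher and 7 lower (7.13% and 9.18%) and IL01 0 higher and 14 lower (16.9% and 5.6%). The median difference was 0.37 in WA and -0.22 in IL01, against -0.14 over all genes in WA. ERG5 was at 30.3, 42.4 and 62.7 RPKM in the 6 WA libraries, at 2.98, 3.46 and 4.52 in PAP and at 1.6, 3.72 and 4.97 in IL01, and WA stood 2.26 ± 0.10 above the mean (adjusted p = 1.8e-11). HMG1 was at 12.1, 17.4 and 21.3 RPKM in WA, 1.88, 2.98 and 5.61 for PAP and 4.18, 6.17 and 9.26 for IL01, a difference of 1.22 ± 0.09 for WA (adjusted p = 1.2e-08). ERG25 (YGR060W, chrVII:610564-611493) was at 1133.8, 1940.5 and 2242.4 RPKM in WA, 481, 639 and 705 for PAP and 407, 583 and 960 for IL01, a difference of 1.01 ± 0.09. NCP1, at 380, 466 and 700 RPKM in WA and at most 289 in the other strains, stood 1.03 ± 0.08 above the mean. HMG1, ERG7, ERG25, ERG5, ERG4 and NCP1 were higher in all 6 WA libraries than in any of the other 12, beside 1.81% of all genes. The 4 members lower in WA were ERG20, UPC2, SUT1 and HES1, by 0.28 to 0.41. In PAP, SUT1 was at 38.5, 58.1 and 70.5 RPKM, above every library of the other strains, which reached at most 31, and ERG11 was below every one of them; 0.966% and 1.23% of all genes behaved so in PAP. PAP also stood lower for HMG1 (-1.04 ± 0.09) and ERG4 (-0.74 ± 0.08).

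Leaving out 1 library at a time left WA with 24 to 26 sterol genes higher with oxygen and 15 to 19 without it, and IL01 with 24 to 28 and 12 to 16 lower. Quantile normalization gave WA 28 higher and 1 lower with oxygen and 23 and 2 without it, IL01 0 and 27, then 0 and 22, and PAP 9 and 10, then 5 and 9. Without oxygen, the count lower in WA went from 4 to 2 without either WA YPD library, WA 1-butanol replicate 1 or WA isobutanol replicate 1. The count higher in PAP went from 3 to 1 without PAP YPD replicate 1, either PAP 1-butanol library or either PAP isobutanol library, and to 5 without PAP YPD replicate 2. The joint calls of ERG20, ERG6, PDR11, MVD1, HES1 and UPC2 without oxygen were lost in 14, 13, 7, 6, 5 and 2 of the 18 fits that left out 1 library, and that of ERG24 with oxygen in 9 of 24. Over all genes quantile normalization moved the share of called genes that were higher in anaerobic WA from 27.4% to 52.6% and in anaerobic IL01 from 75.1% to 48.6%. Of the 36 other sterol genes, 19 differed among strains with oxygen and 15 without it, beside the 49.1% and 38.8% of all genes given above.

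With oxygen, ARE2, ERG28 and ERG5 rose and PDR11 fell in both butanols, and ERG4 fell most in ethanol. In 1-butanol 4 rose and 2 fell, beside 8.42% and 2.45% of all genes. In isobutanol 6 rose and 1 fell, beside 8.15% and 2.41%, and in ethanol 0 rose and 5 fell, beside 5.77% and 1.39%. ARE2 was at 67 to 147 RPKM in YPD, at 104 to 287 in 1-butanol and at 95.2 to 257 in isobutanol, log2 changes of 0.73 ± 0.08 and 0.70. ERG28 and ERG5 rose in both butanols, ERG28 by 0.49 and 0.63 and ERG5 by 0.33 and 0.48. HES1 rose in 1-butanol, by 0.99 ± 0.21 (adjusted p = 0.0097), with 8.11 and 5.3 RPKM in WA and 0.743 to 1.51 in the other strains. In 1-butanol the calls of HES1, ERG5 and ERG10 were lost in 11, 10 and 8 of the 12 fits that left out 1 library, and in isobutanol those of ERG12, ERG25 and ERG3 in 9, 9 and 4.

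PDR11 in aerobic YPD was at 10.8 and 12.7 RPKM in WA, with 2.82 and 2.74 for PAP and 1.67 and 1.9 for IL01. In 1-butanol it was at 2.38 and 2.83, 1.16 and 1.48, and 1.17 and 1.29 RPKM in the same order. The log2 change was -1.08 ± 0.14 (adjusted p = 0.00094) in 1-butanol and -0.88 ± 0.16 in isobutanol, where the call was lost in 9 of the 12 fits that left out 1 library. Within strains the WA change of -1.98 ± 0.25 in 1-butanol passed the test (adjusted p = 0.0015). Those of PAP and IL01, -0.85 and -0.40, did not. The joint limma test of this response among strains gave an adjusted p of 0.14, so no strain difference was called. The amount added to RPKM before the log also understates the change more in PAP and IL01, whose YPD levels were lower. In ethanol PDR11 was at 13.7 and 11.5 RPKM in WA and between 0.787 and 1.99 in the other strains.

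In aerobic YPD ERG4 was at 414 and 519 RPKM in WA, with 376 and 369 for PAP and 464 and 447 for IL01. In aerobic ethanol it was at 299 and 260, 172 and 184, and 220 and 243 RPKM in the same order. Its log2 change was -0.92 ± 0.08 (adjusted p = 7.8e-05). HMG1, ERG27, ERG10 and ERG3 also fell, by 0.62, 0.54, 0.46 and 0.45, and the calls of ERG27, ERG10 and ERG3 were lost in 7, 6 and 9 of the 12 fits that left out 1 library.

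These aerobic counts depend on single libraries. The count in 1-butanol went from 6 to 3 without either PAP YPD library, IL01 YPD replicate 1, either WA 1-butanol library or either PAP 1-butanol library. That in isobutanol went from 7 to 13 without WA YPD replicate 1 and to 3 or 4 without either PAP YPD library, IL01 YPD replicate 1, either WA isobutanol library or PAP isobutanol replicate 1. That in ethanol went from 5 to 2 without either PAP YPD library, WA ethanol replicate 2, PAP ethanol replicate 2 or either IL01 ethanol library. Quantile normalization gave 2 higher and 3 lower, 4 and 2, and 0 and 5 in 1-butanol, isobutanol and ethanol.

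Without oxygen, ERG3 and the squalene epoxidase gene ERG1 fell most in 1-butanol, and ERG3 fell most in isobutanol. In 1-butanol 2 sterol genes rose and 9 fell, beside 20.6% and 7.13% of all genes, and in isobutanol 0 rose and 5 fell, beside 11.5% and 2.65%. Quantile normalization gave 3 and 12, and 0 and 8. ERG3 (YLR056W, chrXII:253861-254958) was at 536 and 540 RPKM in WA, with 158 and 163 for PAP and 258 and 298 for IL01 in anaerobic YPD. In 1-butanol it was at 169 and 171, 71.5 and 58.6, and 56.1 and 67.7 RPKM, and in isobutanol at 284 and 435, 85.1 and 73, and 54.1 and 65.5 RPKM, in the same order. The log2 changes of ERG3 were -1.71 ± 0.16 (adjusted p = 2e-11) in 1-butanol and -1.28 ± 0.14 in isobutanol. ERG1 lay between 475 and 1165.4 RPKM in YPD and between 182 and 462 in 1-butanol, a log2 change of -1.22. CYB5, ERG2, HMG1, NCP1, ERG7, ERG12 and ERG24 also fell in 1-butanol, by 0.52 to 1.08, and in isobutanol NCP1, CYB5, ERG2 and SUT1 fell by 0.72 to 0.83. The calls of ERG12, ERG7 and ERG24 in 1-butanol were lost in 7, 7 and 9 of the 12 fits that left out 1 library, and those of NCP1, CYB5, ERG2 and SUT1 in isobutanol in 1, 8, 7 and 8.

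**Figure D4:**
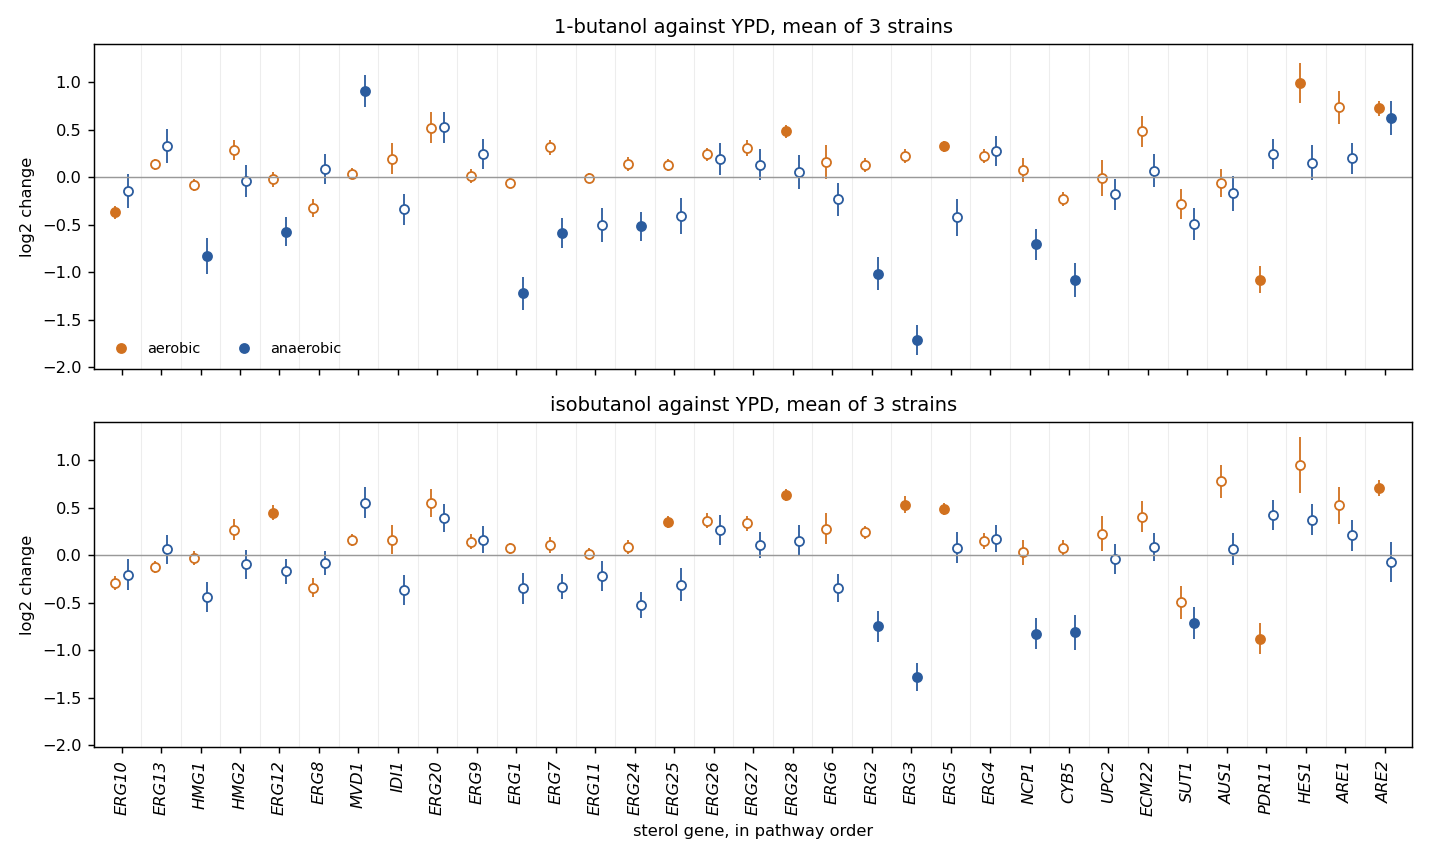
Log2 change of each of the 33 sterol genes, in pathway order, in 1-butanol and in isobutanol against YPD, mean of 3 strains, with and without oxygen. Bars are standard errors, filled markers passed the 1% threshold and open markers did not. In 1-butanol ERG3 lies at -1.71 without oxygen.

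MVD1 rose in anaerobic 1-butanol, and unevenly. It was at 298 and 249 RPKM in WA in YPD and 189 and 278 in 1-butanol, at 207 and 163 and then 770 and 692 in PAP, and at 180 and 165 and then 411 and 283 in IL01. The changes were -0.25 ± 0.30 in WA, 1.99 ± 0.30 in PAP and 0.98 ± 0.30 in IL01, and MVD1 was the 1 sterol gene whose response to 1-butanol without oxygen differed among strains (adjusted p = 0.0015), beside 2.38% of all genes. That call was lost without WA YPD anaerobic replicate 1, PAP YPD anaerobic replicate 2 or WA 1-butanol anaerobic replicate 1, and also with no filter on low values and under quantile normalization, where 0 sterol genes were called. PAP YPD anaerobic replicate 2 and WA 1-butanol anaerobic replicate 1 had the lowest shares of reads in genes, 55.57% and 59.05%. In isobutanol the MVD1 changes were -0.36, 1.24 and 0.78, none past the threshold. ARE2 also rose in anaerobic 1-butanol, by 0.63, a call lost in 8 of the 12 fits that left out 1 library.

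No sterol gene's response differed among strains in limma in the other 5 settings, beside 0.269%, 0.125% and 0% of all genes in aerobic 1-butanol, isobutanol and ethanol and 0.316% and 0.32% in anaerobic isobutanol and ethanol. None did with limma-voom on recovered reads. A block per strain and 1 fit of 46 libraries did call some in aerobic 1-butanol and in anaerobic isobutanol. So did adding the pair labelled WA in anaerobic ethanol, and the counts are given below. At an unadjusted p under 0.05 the counts of 33 were 13 in aerobic 1-butanol (9.35% of all genes), 11 in aerobic isobutanol (7.27%), 9 in aerobic ethanol (13.6%), 6 in anaerobic isobutanol (9.45%) and 0 in anaerobic ethanol (12.1%).

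The response to the butanols differed by oxygen for 9 sterol genes in 1-butanol, 2 higher and 7 lower without oxygen (4.61% and 2.57% of all genes), and for 3 in isobutanol, 1 higher and 2 lower (2.02% and 1.44%). With oxygen ERG3 was at 984 and 1201.5 RPKM in WA, with 612 and 666 for PAP and 600 and 545 for IL01 in YPD, and at 979 and 957, 956 and 1016.2, and 719 and 613 in 1-butanol, so that it was no lower in PAP and IL01, whereas without oxygen it was lower in every strain. The difference between the responses, anaerobic minus aerobic, was -1.93 ± 0.15 (adjusted p = 9.9e-08) in 1-butanol and -1.81 ± 0.17 (adjusted p = 3e-06) in isobutanol. ERG2 differed likewise, by -1.14 and -0.99, and ERG1 and ERG7 differed in 1-butanol by -1.16 and -0.90. PDR11 differed the other way, by 1.33 ± 0.20 and 1.30 ± 0.22: it fell with oxygen and was at 41.8 to 90.3 RPKM in YPD and 66.4 to 104 in 1-butanol without it. NCP1, HMG1 and ERG24 in 1-butanol, at -0.79, -0.75 and -0.66, lost their calls in 19, 13 and 8 of the 24 fits that left out 1 library, and MVD1 stood at 0.87.

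**Figure D5:**
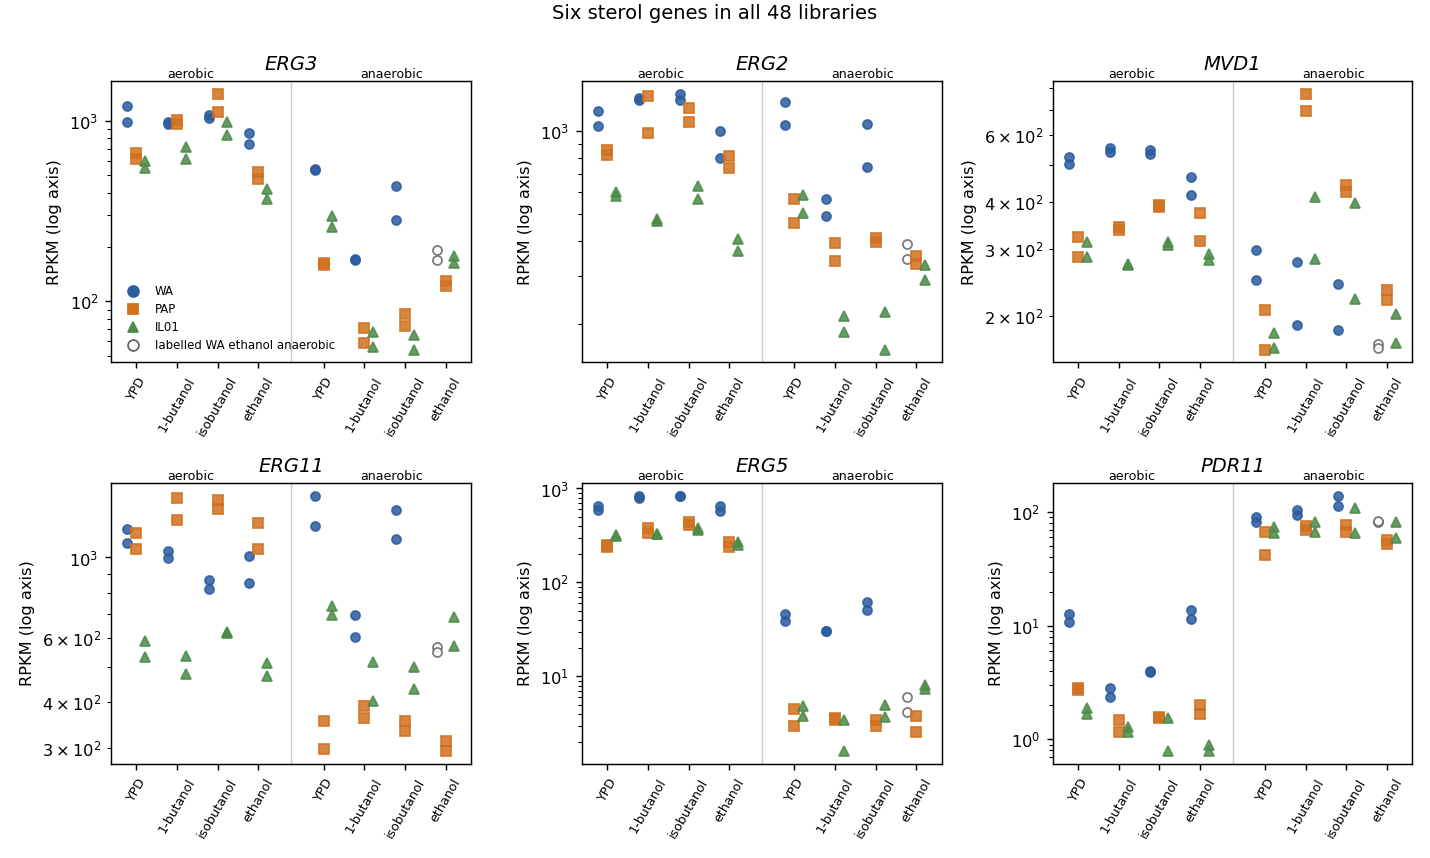
RPKM (log axis) of 6 sterol genes in all 48 libraries, by medium and oxygen, coloured by strain, with open circles for the pair labelled WA ethanol anaerobic. ERG3 lies between 56.1 and 171 RPKM in anaerobic 1-butanol and, in the anaerobic PAP and IL01 isobutanol libraries, at or below 85.1.

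The anaerobic counts also depend on single libraries. The count in 1-butanol went from 11 to 7 without WA YPD replicate 1, either IL01 YPD library or either PAP 1-butanol library. That in isobutanol went from 5 to between 1 and 3 without either WA YPD library, PAP YPD replicate 1, IL01 YPD replicate 1, either WA isobutanol library or either PAP isobutanol library, and to 9 without IL01 isobutanol replicate 2. PAP YPD anaerobic replicate 2 had the lowest share of reads in genes. Without it, the counts that differed by oxygen went from 9 to 14 in 1-butanol and from 3 to 8 in isobutanol. In isobutanol, leaving out WA isobutanol anaerobic replicate 2 or either IL01 isobutanol anaerobic library gave 6 or 7.

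Anaerobic ethanol was tested in PAP and IL01 only, 8 libraries, and 0 sterol genes rose and 1 fell, beside 3.23% and 0.853% of all genes. That gene, ERG2, lay between 465 and 585 RPKM in the 4 YPD libraries and reached at most 354 in the 4 ethanol libraries. Its log2 change was -0.70 ± 0.13. At an unadjusted p under 0.05 there were 8 of 33, beside 19.6% of all genes. The count was 6 without PAP YPD replicate 1, 13 without PAP YPD replicate 2, and 0 without either IL01 YPD library, either PAP ethanol library or IL01 ethanol replicate 1. Ethanol levels across oxygen can only be set side by side, since the doses differed: HES1 in PAP and IL01 was at 0.465, 3.33, 2.25 and 2.49 RPKM at 4% with oxygen and at 587, 717, 652 and 852 RPKM at 3% without it, and HMG1 was at 192, 159, 124 and 136 RPKM and at 4.85, 5.29, 5.19 and 6.38 RPKM.

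Set against anaerobic WA YPD, the pair labelled WA ethanol anaerobic had 0 sterol genes higher and 16 lower, beside 5.56% and 4.8% of all genes. ERG5 was at 6.08 and 4.17 RPKM in it, against 46.3 and 38.5 in WA YPD and 2.57 to 8.01 in PAP and IL01 ethanol, a log2 difference of -2.95 ± 0.30. HMG1 was at 3.89 and 3.24 RPKM, against 21.3 and 20.5 in WA YPD and 4.85 to 6.38 in PAP and IL01 ethanol, a difference of -2.40 ± 0.28. ERG3, ERG25, ERG2 and ARE2 were lower by 1.40 to 1.71. AUS1, at 932 and 912 RPKM, and PDR11, at 81.8 and 83.9 RPKM, did not pass the test. Strain and medium cannot be told apart in these values, since the pair did not match the WA pattern of other genes throughout.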

How the data were processed

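Strand-specific total RNA libraries were sequenced from 48 yeast cultures. The authors aligned single-end reads with bwa to S288c (R64), counted reads per gene with HTSeq (strand setting not given in the sources used here) and deposited log2 RPKM values per gene and library, with 0 for genes without reads. These values were turned back into RPKM and tested as log2(RPKM + 0.5) in limma 3.58.1 (R 4.3.3; lmFit, eBayes with trend), for genes whose RPKM averaged 1 or more over the fitted libraries, at a false discovery rate of 1% over all genes tested, with replicate number within an oxygen condition as a block, since the study collected replicates on different days for paired testing. Fits used the 12 libraries of a comparison, 8 for anaerobic ethanol, 24 or 18 for strains and 24 for alcohol by oxygen. Alcohols were not compared with each other, as their doses differed. Dividing by gene length gave whole reads (tolerance 0.01) for 6012 of 6713 genes (89.56%), which were tested with limma-voom as an alternative. No pair of libraries held the same values. The scripts were tested on simulated data. Nothing says that replicates shared no source, so p-values measure the spread between these libraries.

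The 33 genes and the lists were chosen with earlier results of these data known. Values are given library by library for at most 4 genes with the largest rise and 4 with the largest fall per comparison, and the others are described by counts and ranges. Alternatives were no replicate block, a block per strain, a pseudocount of 1, the deposited log2 values, no filter, quantile normalization, no trend, 1 fit of 46 libraries, voom and leaving out each library. Same-numbered libraries deviated together only weakly: the median correlation of their deviations was 0.09 over 66 pairs of aerobic groups (-0.44 to 0.67) and 0.11 over 55 pairs of anaerobic groups (-0.42 to 0.77).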

Additional observations from a re-analysis of the deposited data

Results flagged for a closer look

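The results below were listed because the same contrast differed between strains or between oxygen conditions in a test of the difference itself.

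The change of ERG11 without oxygen in YPD differed among the strains (adjusted p = 0.00079 in limma, 12 libraries), with changes of 0.23, -1.77 and 0.35 in WA, PAP and IL01, and so did that of ERG5 (adjusted p = 0.0069), which fell least in WA. The response of MVD1 to 1-butanol without oxygen differed among strains (adjusted p = 0.0015), with changes of -0.25, 1.99 and 0.98 in WA, PAP and IL01, and was not called with no filter on low values or under quantile normalization.

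The response to 1-butanol differed by oxygen, as the anaerobic log2 change minus the aerobic one, for ERG3 (-1.93), ERG1 (-1.16), ERG2 (-1.14), ERG7 (-0.90), NCP1 (-0.79), HMG1 (-0.75), ERG24 (-0.66), MVD1 (0.87) and PDR11 (1.33). The response to isobutanol differed by oxygen for ERG3 (-1.81), ERG2 (-0.99) and PDR11 (1.30).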

How the results depend on the processing

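The counts of sterol genes that differed among strains in the joint test, and those that moved with oxygen in YPD, 1-butanol and isobutanol, stayed within 1.5 times their value under every alternative run, leave-one-out fits included, the paired ratios kept their direction and call, and no result reversed. The counts of a single strain against the mean without oxygen moved further: under quantile normalization IL01 lower went from 14 to 22, WA lower from 4 to 2 and PAP higher from 3 to 5, PAP higher was also 5 with a block per strain and in 1 fit of 46 libraries, where PAP lower went from 7 to 11, and leaving out 1 library gave 1 to 5 for PAP higher, 2 to 5 for WA lower and 0 to 1 for IL01 higher, the 1 without PAP YPD replicate 1. With oxygen WA lower went from 1 to 2 with a block per strain and without WA YPD replicate 1. Of the values under alternatives for single genes called in the main fits, 909 kept their call and 51 lost it. Joint tests, leave-one-out fits and genes that gained a call were not part of this count. The other counts of sterol genes that moved further are as follows, and the cause was not tested. For strain by oxygen in YPD, 2 became 1 with no filter, 0 with no trend and 7 in 1 fit of 46 libraries. In aerobic 1-butanol 6 became 12 with a block per strain, and in aerobic isobutanol 7 became 12 with that block and 11 in 1 fit of 46. In aerobic ethanol 5 became 3 with no trend and 8 in 1 fit of 46. In anaerobic isobutanol 5 became 8 under quantile normalization and 10 in 1 fit of 46. In anaerobic ethanol 1 became 2 under quantile normalization, 0 with no trend, 0 with voom, 4 in 1 fit of 46 and 14 with the pair labelled WA. For strain by 1-butanol, 0 became 2 with a block per strain and 1 in 1 fit of 46 with oxygen, and 1 became 0 with no filter, 0 under quantile normalization and 6 in 1 fit of 46 without oxygen. For strain by isobutanol without oxygen, 0 became 2 with a block per strain and 4 in 1 fit of 46, and for strain by ethanol without oxygen 0 became 8 with the pair labelled WA. For isobutanol by oxygen, 3 became 5 under quantile normalization and 9 in 1 fit of 46.

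Leaving out 1 library at a time gave 29 to 31 sterol genes that differed among strains with oxygen and 18 to 24 without it, 20 to 24, 19 to 23 and 18 to 23 that moved with oxygen in YPD, 1-butanol and isobutanol, and 0 to 4 for strain by oxygen. It gave 3 to 9, 3 to 13 and 2 to 7 in aerobic 1-butanol, isobutanol and ethanol, 7 to 12, 1 to 9 and 0 to 13 in the anaerobic media, and 6 to 14 and 3 to 8 for 1-butanol and isobutanol by oxygen. For strain by alcohol it gave 0 to 1 in aerobic ethanol, 0 to 1 in anaerobic 1-butanol, 0 to 4 in anaerobic isobutanol and 0 to 3 in anaerobic ethanol.

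Without the replicate block the counts were 30 and 23 for strains with and without oxygen, 26, 20 and 20 for oxygen in YPD, 1-butanol and isobutanol, 6, 8 and 5 in the aerobic alcohols and 12, 5 and 1 in the anaerobic ones, 2 for strain by oxygen, 8 and 4 for the butanols by oxygen, and 1 for strain by anaerobic 1-butanol, and none of these counts moved by more than 1.5 times. A block per strain could not be fitted for oxygen in YPD, 1-butanol or isobutanol or for strain by oxygen, which left no residual degrees of freedom.

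Depth limits HES1 most, with 4 to 102 aerobic reads per library.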
